A study of Mus musculus with 24 samples.

Results

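Zinc finger protein genes with a numbered Zfp symbol were followed in CD4+ T cells with and without BAF180. The genes were taken as every probe whose symbol in the deposited table was Zfp followed by a number, without Zfp36, whose CCCH finger protein binds RNA. The array carried 304 such probes for 204 symbols among 25697 probes in all. Of these, 198 probes for 147 symbols were detected (detection p at most 0.02) on at least 1 array and could be analysed, among 14246 probes of 10545 symbols kept in the whole series. A probe that passed on a single array counts among them, so the 198 probes are those with some signal and not the whole family.

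Most of these genes encode C2H2 zinc finger proteins, in which a row of short zinc-binding loops reads DNA base by base. Many carry a KRAB box, which recruits the corepressor Trim28 (KAP1) and, through it, the H3K9 methyltransferase Setdb1, HP1 proteins, the NuRD deacetylase complex and DNA methylation, and many such proteins silence transposable elements. Others carry a BTB or a SCAN domain, and the symbol also covers proteins of other kinds, since it was given to any gene predicted to hold a zinc finger.

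BAF180, encoded by Pbrm1, is a subunit found in PBAF and not in the other SWI/SNF chromatin remodeling complexes. The BAF180-deficient cells came from mice with a conditional Pbrm1 allele deleted by CD4-Cre late in thymic development, and WT cells came from control mice. The study compared 4 cell states in each genotype, with 3 arrays a group, labelled by the letters A to C. CD4+CD62L+ cells of spleen and lymph nodes, stated to be 95% pure, from mice of 4 to 6 weeks made up the resting Naïve samples. Stimulated Naïve cells had 24 h of anti-CD3 at 1 µg/ml with anti-CD28 at 2 µg/ml. Resting Th2 cells were Naïve cells activated with the same antibodies, IL-4 at 10 ng/ml and anti-IFN-γ at 10 µg/ml, given IL-2 at 100 U/ml at 24 h and expanded from day 3. Stimulated Th2 cells were these cells after 1.5 h in which PMA (50 ng/ml) activated protein kinase C and ionomycin (500 ng/ml) raised intracellular calcium. The labels give Balb/c mice, while the methods describe a mixed genetic background. The methods speak of 3 pairs of mice, and the labels do not say which animal gave which array, so p-values measure the spread between these arrays. In RNA from bulk cells, fewer cells of a type and less RNA per cell cannot be told apart.

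Values are background-corrected, quantile-normalized log2 intensities, and a difference is a log2 difference with its standard error (SE) and the limma p adjusted by Benjamini-Hochberg over all 14246 probes. Between 8047 and 10689 probes were detected per array, and the 3 arrays a group limit the precision. The brightest Pbrm1 probe was lower in BAF180-deficient cells by -1.0 in resting Naïve (adjusted p = 0.113), -1.60 in stimulated Naïve (0.00673), -1.83 in resting Th2 (0.000876) and -1.39 in stimulated Th2 cells (0.0132). The other 2 Pbrm1 probes differed by -0.39 to -0.72, with adjusted p of 0.696 to 1. All 6 T cell markers were detected on every array. Markers of other cells were highest in resting Naïve cells. The mean of 7 myeloid markers was 7.17 to 8.54 on the WT and 7.58 to 8.03 on the BAF180-deficient resting Naïve arrays, against 4.27 to 4.79 in the other 6 groups, and 6 of 7 were detected on all 3 arrays there while Itgam was detected on none. The mean of 7 B cell markers was 5.35 to 6.11 in resting Naïve cells and 4.30 to 5.25 elsewhere, with Pax5 and Ebf1 detected on no array. The mean of 4 erythroid markers was 5.20 to 8.67 there and 4.33 to 5.28 elsewhere, and that of 5 CD8 and NK cell markers 5.35 to 6.00 and 4.65 to 5.31. Of these 5, Cd8b1 was detected on all 24 arrays, and Cd8a and Ncr1 on none. Cd8b1 stood at 8.29 in BAF180-deficient against 8.43 in WT resting Naïve cells, and at 6.89 against 7.66 in stimulated ones. In Th2 cells it stood at 6.92 against 7.85 at rest and at 6.98 against 7.67 after stimulation. The markers of other cells move with each comparison against resting Naïve cells below, and their part in those results was not tested. Nor was the part of Cd8b1 in the comparison of genotypes. Between resting and stimulated Th2 cells the myeloid mean stayed at 4.27 to 4.47 on every array. The B cell mean was 4.33 to 5.25 at rest and 4.30 to 4.98 after stimulation, where Cd79b went from 6.10 to 4.70 in WT and from 6.69 to 5.08 in BAF180-deficient cells, and Hba-a1 went from 6.12 to 5.38 in WT cells. Their part there was not tested either.

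The Zfp signals were dim, where a signal depends on the probe as well as on the transcript. Their mean log2 level over the 24 arrays was between 4.22 and 8.73 with a median of 5.03, where the median of all kept probes was 5.33. Signal was present on all 24 arrays for 64 of the 198 probes and on 12 or more for 130, while 25 were detected on 1 array only. Resting Naïve cells had the fewest detected Zfp probes, 92 to 114 on WT and 91 to 114 on BAF180-deficient arrays. The counts were 122 to 141 and 110 to 154 in stimulated Naïve, 127 to 144 and 139 to 143 in resting Th2, and 120 to 133 and 121 to 137 in stimulated Th2 cells. Detected probes of any gene were also fewer in resting Naïve cells, 8047 to 9498 and 8417 to 9234. By current names, 162 probes of 125 genes keep a Zfp symbol. Another 10 probes of 7 genes carry a Zscan or Zkscan symbol, and 9 probes of 4 genes a Zbtb symbol. The other 17 probes stand for 11 genes with other symbols. Among them are Sf1, a splicing factor that binds the intron branch point, and the ubiquitin ligases Rnf114 and Rnf115. These are counts of names and not of protein domains. The genes lay most often on chromosome 7 (35 genes), chromosome 17 (15) and chromosome 13 (13).

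The first question was which of these genes move when Naïve cells are activated through the T cell receptor. After 24 h of anti-CD3 and anti-CD28, 37 of the 198 Zfp probes were higher and 34 lower in WT cells at an adjusted p below 0.05, together 61 genes. These were 18.7% and 17.2% of the members, where 23.6% and 20% of all probes were called higher and lower. In BAF180-deficient cells 35 probes were higher and 28 lower (17.7% and 14.1%, against 22.3% and 19.3% of all probes). The median Zfp difference was 0.016 in WT and 0.062 in BAF180-deficient cells, with all probes at 0.013 and 0.024, so the family had no common direction. The median size of a difference, without its sign, was 0.30 for Zfp and 0.40 for all probes in WT cells. The share called was below that of all probes also at like detection: 46.9% against 57.9% for WT probes on all 24 arrays, and 48.5% against 54.2% for those on 12 to 23.

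**Figure D1:**
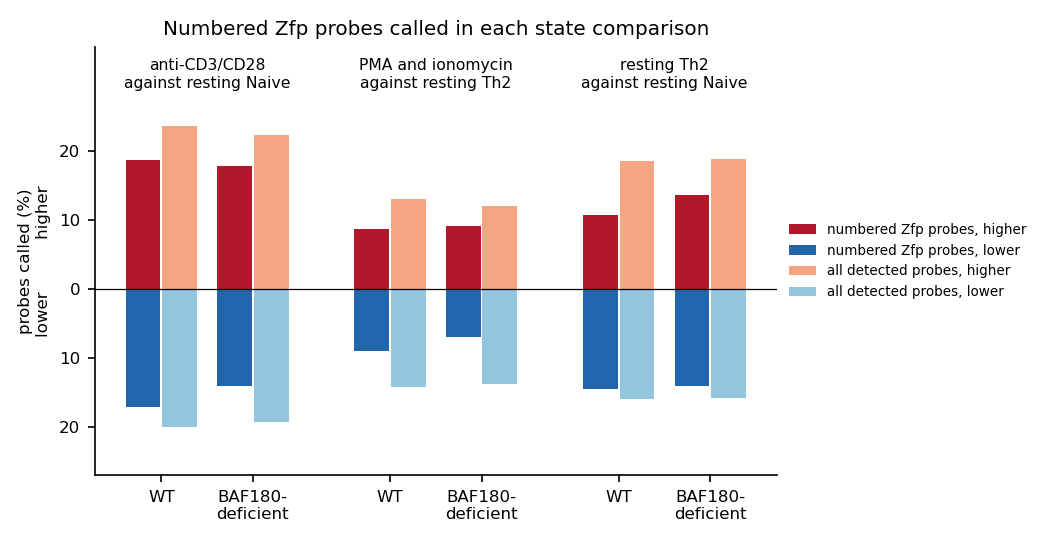
Share of the 198 detected Zfp probes and of all 14246 kept probes called higher or lower (adjusted p below 0.05) in the 6 comparisons of cell states, in percent. The Zfp share lies below that of all probes in each of the 12 pairs of bars, for instance 18.7% against 23.6% for probes higher after anti-CD3 and anti-CD28 in WT cells.

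Zfp52, a KRAB zinc finger gene, had the highest increase with anti-CD3 and anti-CD28. Its WT values were 4.77, 4.60 and 5.01 in resting and 6.13, 7.53 and 7.25 in stimulated Naïve cells (arrays A, B and C). Every stimulated array lay above every resting one, with array A the lowest of the stimulated arrays. The difference was 2.18 (SE 0.39, adjusted p = 0.000105), a 4.52-fold increase. In BAF180-deficient cells the values were 5.02, 5.13 and 5.26 against 6.08, 7.25 and 7.30, a difference of 1.74 (SE 0.39, adjusted p = 0.000978). Zfp41 rose from 4.31, 4.88 and 5.53 to 6.28, 6.28 and 6.21, by 1.35 (SE 0.24, adjusted p = 0.000132), and by 1.21 in BAF180-deficient cells (adjusted p = 0.000396). Its 3 resting arrays spread over more than a log2 unit and the stimulated ones lay close together.

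Zfp296 encodes a zinc finger protein known from pluripotent cells. It was detected on no WT array at rest, with values of 4.50, 4.42 and 4.64, and on all 3 after stimulation, with 5.53, 5.50 and 5.58. The increase was at least 1.62-fold (adjusted p = 1.41e-06), and the measured difference was 1.01 in WT and 0.88 in BAF180-deficient cells (adjusted p = 8.51e-06). Bounds of this kind compare the mean of the detected group with the lowest signal detected on each array of the other. Zfp367, also undetected at rest, rose at least 1.38-fold in WT (adjusted p = 0.0199) and at least 1.33-fold in BAF180-deficient cells (0.0245). These calls rested on single arrays: the WT call was lost without resting array A or B (0.89 and 0.92) or stimulated array B (0.62), and the other without resting array A or C (0.94 each) or stimulated array B or C (0.67 and 0.83). Zfp207 (BuGZ), which binds spindle microtubules and the checkpoint protein Bub3, rose from 6.08, 6.52 and 6.60 to 7.31, 7.51 and 7.20 in WT cells, by 0.94 (SE 0.14, adjusted p = 2.02e-05), and by 0.71 in BAF180-deficient cells (0.000427). Zfp771 rose by 1.11 and 1.14 (adjusted p = 0.000305 and 0.000237).

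Zfp99, now named Zkscan14, a gene with KRAB and SCAN domains, had the strongest decrease. Its WT level was 8.49, 7.98 and 7.37 in resting and 5.97, 5.87 and 5.97 in stimulated Naïve cells. The groups were far apart, and the spread lay in the resting arrays. The level fell 4.03-fold (difference -2.01, SE 0.22, adjusted p = 3.52e-07). The BAF180-deficient arrays went from 7.97, 8.30 and 7.54 to 6.34, 6.02 and 5.89 (-1.85, SE 0.22, adjusted p = 1.06e-06). Zfp292, a large zinc finger protein, went from 9.78, 9.64 and 10.02 to 8.16, 8.15 and 8.21 in WT cells. It fell by 1.64 (SE 0.24, adjusted p = 1.13e-05), and by 1.52 in BAF180-deficient cells (2.89e-05).

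Zfp212 went from 9.51, 9.36 and 8.36 to 7.65, 7.57 and 7.81, with array C the lowest at rest, and fell by 1.40 (SE 0.23, adjusted p = 4.76e-05). Of its 5 probes, 4 were called lower in WT and 3 in BAF180-deficient cells. Zfp592, a partner of the chromatin reader Zmynd8, went from 7.51, 8.14 and 8.31 to 6.51, 6.87 and 6.56. Its decrease was 1.34 in WT (difference -1.34, adjusted p = 0.000123) and -1.46 in BAF180-deficient cells (5.11e-05), with no overlap between the groups. Zfp281, which binds GC-rich promoters, fell by 1.03 (adjusted p = 0.00153) and 1.36 (0.000111), and Zfp187, now Zscan26, by 1.05 (0.00033) and 1.20 (8.26e-05).

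**Figure D2:**
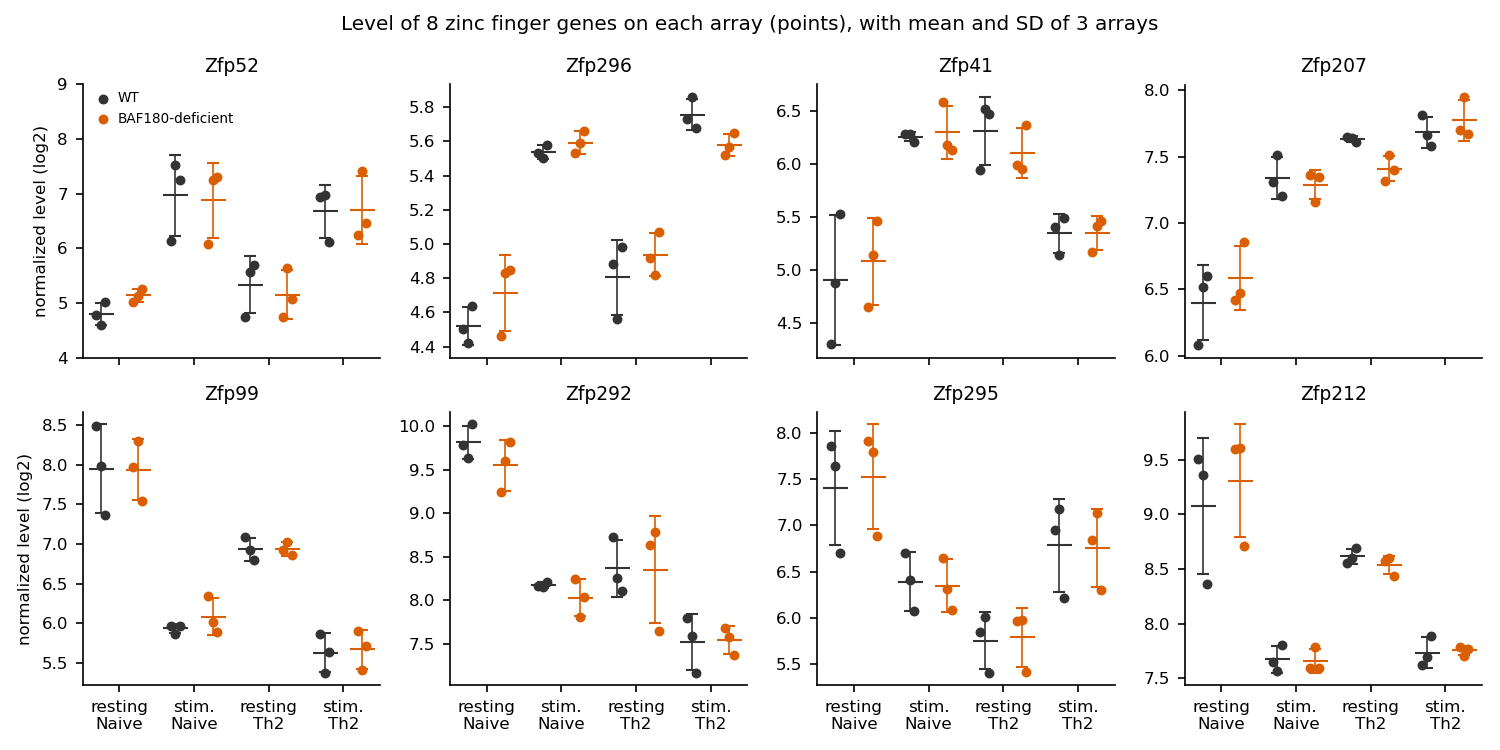
Normalized log2 intensity of 8 Zfp genes on every array, in the 4 cell states for WT and BAF180-deficient cells, with the mean and SD of 3 arrays. Zfp52, Zfp296 and Zfp41 are higher in stimulated than in resting Naïve cells, while Zfp99, Zfp292, Zfp295 and Zfp212 are lower, and points of both genotypes are shown side by side within a state.

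The next comparison asked which Zfp genes move within 1.5 h of PMA and ionomycin in Th2 cells. In WT cells 17 Zfp probes were higher and 18 lower (8.59% and 9.09%), where 13% and 14.3% of all probes were. In BAF180-deficient cells 18 were higher and 14 lower (9.09% and 7.07%, against 12% and 13.8%). The WT differences ran from -1.31 to 1.35, with a median of -0.007.

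Zfp330 encodes a nucleolar protein. Its WT values went from 8.13, 7.80 and 8.15 in resting to 9.47, 8.90 and 8.88 in stimulated Th2 cells, a difference of 1.06 (SE 0.21, adjusted p = 0.000482). The BAF180-deficient values went from 7.73, 7.77 and 8.05 to 9.20, 9.72 and 9.29, a difference of 1.55 (SE 0.21, adjusted p = 8.26e-06). No stimulated array reached down to a resting one in either genotype. Zfp263 went from 7.29, 7.20 and 7.27 to 8.57, 8.35 and 8.16, by 1.11 (adjusted p = 0.0182), and its probe varied more between arrays of other groups, so that the SE was 0.34. The call was lost without WT resting array B (1.08) or stimulated array A (1.00). In BAF180-deficient cells Zfp263 rose by 1.18 (adjusted p = 0.0131), a call lost without resting array A (1.11) or stimulated array B (1.08). Zfp275 rose by 0.73 and 0.65 in WT and BAF180-deficient cells (adjusted p = 0.00321 and 0.00824).

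Zfp295 (now Zbtb21) encodes a BTB zinc finger repressor. It went from 5.85, 6.01 and 5.41 to 6.95, 7.18 and 6.22 in WT cells, a difference of 1.02 (SE 0.32, adjusted p = 0.0216), and rose by 0.97 in BAF180-deficient cells (0.0316). Array C was the lowest in each of these groups, and 2 of the 3 probes of the gene were called in WT cells. In each genotype the call was lost without resting array C or stimulated array A or B, where the difference was 0.83 to 0.94 in WT and 0.78 to 0.92 in BAF180-deficient cells. Zfp99 went from 7.09, 6.92 and 6.80 to 5.87, 5.38 and 5.64, by -1.31 (SE 0.22, adjusted p = 0.00013), and by -1.27 in BAF180-deficient cells (0.000223). Zfp512 went from 6.78, 6.32 and 6.20 to 5.36, 5.23 and 5.38, by -1.11 (adjusted p = 0.000477), and by -1.21 in BAF180-deficient cells (0.000235). Zfp261, now Zmym3, a component of LSD1 and CoREST corepressor complexes, fell by 1.07 (adjusted p = 0.00473) and 0.78 (0.038). The second of these was lost without resting array A or B (-0.71 and -0.74) or stimulated array B or C (-0.87 and -0.49). Zfp365 fell by 0.87 (0.0031) and 1.10 (0.000432).

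The stimulations of Naïve and Th2 cells share no arrays, so their members can be set side by side, although cells, stimulus and time all differ. In WT cells 8 probes were called higher in both, 21.6% of the 37 and 47.1% of the 17, and they belong to Zfp52, Zfp106, Zfp202, Zfp259, Zfp296, Zfp397 and Zfp553. Another 6 were called lower in both (17.6% and 33.3%), those of Zfp99, Zfp212, Zfp292, Zfp365, Zfp523 and Zfp524. Over all 14246 probes 31.7% and 57.8% of the calls higher were shared, and 34.9% and 48.8% of those lower, so each share of the members was below that of all probes. In BAF180-deficient cells the shared Zfp probes numbered 8 higher (22.9% and 44.4%) and 5 lower (17.9% and 35.7%). Over all probes these shares were 27.8% and 51.8% of the calls higher, and 32.5% and 45.5% of those lower. Zfp52 rose in Th2 cells from 4.74, 5.57 and 5.69 to 6.94, 6.98 and 6.12, by 1.35 (adjusted p = 0.0118), though the call was lost without WT resting array A (1.05) or stimulated array A or B (1.22 and 1.20). In BAF180-deficient cells it rose by 1.55 (0.00464). Zfp296 rose from 4.88, 4.56 and 4.98 to 5.73, 5.86 and 5.68, by 0.95 (SE 0.13, adjusted p = 6.86e-06).

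Opposite directions were found in both genotypes for Zfp41, Zfp295 and Zfp91. Zfp41, higher in Naïve cells after 24 h of antibodies, fell in WT Th2 cells from 5.94, 6.52 and 6.47 to 5.41, 5.14 and 5.49, by 0.96 (SE 0.24, adjusted p = 0.00499), and by 0.76 in BAF180-deficient cells (0.0258), a call lost without resting array C (-0.62) or stimulated array A or B (-0.67 and -0.79). Zfp91, an E3 ligase of the noncanonical NF-kB pathway, fell in stimulated Naïve cells, from 7.92, 8.20 and 8.11 to 7.73, 7.45 and 7.47 in WT (-0.53, adjusted p = 0.0103), and rose in Th2 cells, from 7.46, 7.78 and 7.63 to 8.27, 8.23 and 7.95 (0.53, adjusted p = 0.0166). Its BAF180-deficient differences were -0.54 and 0.52. The rise of Zfp91 was lost without WT resting array A or stimulated array A or B (0.45 to 0.49), and without BAF180-deficient resting array B or C or stimulated array A (0.43 to 0.50). Its fall in BAF180-deficient cells was lost without resting array A (-0.42) or stimulated array C (-0.43). In all, 4 WT probes were higher in the first and lower in the second (those of Zfp41, Zfp119 and Zfp446) and 3 the reverse (Zfp91, Zfp295 and Zfp513). These were 10.8% and 8.82% of the Zfp probes called in Naïve cells, where the shares over all probes were 8.7% and 4.48%.

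The starts of the genes on which these results turn are shown to let the sequences be compared. RefSeq promoter windows (assembly GRCm38.p6, from 250 bases before to 50 after the start) were found for 122 of the 147 symbols, as 161 windows. The last 120 bases before the start are printed for 2 genes higher and 2 lower after both stimulations and for Zfp295, which moved both ways. Capitals mark the E-box CACGTG, the only motif searched that falls inside these stretches. Zfp52 is at chr17:21535419-21535538 (plus strand), Zfp296 at chr7:19577167-19577286 (plus), Zfp212 at chr6:47920448-47920567 (plus), Zfp292 at chr4:34882949-34883068 (minus) and Zbtb21, the current name of Zfp295, at chr16:97962623-97962742 (minus).
Zfp52: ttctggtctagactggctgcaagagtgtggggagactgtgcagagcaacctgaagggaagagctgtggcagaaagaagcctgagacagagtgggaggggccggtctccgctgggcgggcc
Zfp296: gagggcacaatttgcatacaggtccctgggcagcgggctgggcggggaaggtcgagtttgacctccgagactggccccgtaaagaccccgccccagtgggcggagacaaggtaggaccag
Zfp212: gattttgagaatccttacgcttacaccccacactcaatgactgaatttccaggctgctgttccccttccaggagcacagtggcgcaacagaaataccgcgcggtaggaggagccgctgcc
Zfp292: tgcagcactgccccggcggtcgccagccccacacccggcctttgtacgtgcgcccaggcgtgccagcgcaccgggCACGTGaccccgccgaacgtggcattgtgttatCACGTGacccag
Zbtb21: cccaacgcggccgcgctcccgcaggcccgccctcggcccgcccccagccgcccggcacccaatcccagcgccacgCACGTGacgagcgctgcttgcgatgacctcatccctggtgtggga

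In these stretches Zfp292 holds a pair of E-boxes and Zbtb21 holds 1, while the window of Zfp296 holds its E-box outside the printed stretch. The window of Zbtb21 also holds a CRE (TGACGTCA) and an NF-kB site (GGGNNTTCC) outside it. Both strands were searched for 7 motifs. Among sites bound by factors that follow T cell receptor signals, the AP-1 site TGANTCA was found in 1.86% of Zfp windows and 7.81% of all 32851 windows, and the NF-kB site GGGNNTTCC in 7.45% and 5.82%. The E-box CACGTG was in 6.21% and 7.15%, and the TATA box TATAAA in 8.07% and 13.6%. The ETS site CCGGAAG was in 17.4% of Zfp and 8.86% of all windows, the NRF1 site GCATGCGC in 8.70% and 2.71%, and the CRE TGACGTCA in 5.59% and 1.79%. The median GC content was 58.3% in Zfp and 52.7% in all windows. Between the 33 windows of members higher and the 31 of members lower after anti-CD3 and anti-CD28 in WT cells, the ETS site stood in 15.2% and 9.68%, the E-box in 9.09% and 9.68%, NRF1 in 9.09% and 6.45% and AP-1 in 3.03% and 0%. The NF-kB site stood in 0% of the higher and 12.9% of the lower windows, CRE in 3.03% and 9.68% and TATA in 15.2% and 22.6%. The 33 windows belong to 25 genes and the 31 to 22. A gene with several windows, such as Zbtb18 with TATA or Zfp473 with CRE among all Zfp windows, is counted more than once. These counts describe letters and no test was made on them.

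The last comparison of states set resting Th2 cells against resting Naïve cells, the same Naïve arrays as above. In WT cells 21 Zfp probes were higher and 29 lower (10.6% and 14.6%, against 18.5% and 16% of all probes), and in BAF180-deficient cells 27 and 28 (13.6% and 14.1%, against 18.8% and 15.9%). Zfp207 stood at 7.65, 7.64 and 7.61 in WT Th2 cells, all above the Naïve arrays at 6.08 to 6.60, a difference of 1.24 (SE 0.14, adjusted p = 1.16e-06), and rose by 0.83 in BAF180-deficient cells (0.00015). Zfp41 was higher by 1.40 (adjusted p = 0.000149) and 1.02 (0.0027). Zfp367 and Zfp748, both undetected in resting Naïve cells, were at least 1.55-fold and at least 1.33-fold higher in WT Th2 cells (adjusted p = 0.00984 and 0.00275), and each was at least 1.41-fold higher in BAF180-deficient ones, where the call of Zfp367 was lost without Th2 array B (0.79).

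Zfp143, an activator that binds promoters of many housekeeping genes, stood at 5.84, 5.54 and 5.53 in WT Th2 against 4.37, 4.46 and 5.09 in Naïve cells, higher by 1.00 (SE 0.21, adjusted p = 0.000868), and by 0.63 in BAF180-deficient cells (0.024), a call lost without Naïve array B (0.48) or Th2 array B or C (0.61 and 0.59). Zfp160 was higher by 1.05 in WT cells (SE 0.39, adjusted p = 0.0437), with 5.92, 5.92 and 5.59 against 4.28, 4.51 and 5.49, a call lost without any of these arrays (0.81 to 1.16) except Naïve array C (1.41). In BAF180-deficient cells its values were 4.90, 5.94 and 5.15 against 4.22, 5.48 and 5.63, a difference of 0.22 (adjusted p = 0.711), and the differences of the genotypes were not told apart (interaction -0.83, SE 0.56, adjusted p = 1). That BAF180-deficient difference turned negative without Naïve array A (-0.23) or Th2 array B (-0.09).

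Among the genes lower in Th2 cells, Zfp295 went from 7.86, 7.64 and 6.70 in WT Naïve cells to 5.85, 6.01 and 5.41, by -1.64 (SE 0.32, adjusted p = 0.000509), and by -1.73 in BAF180-deficient cells (0.000302). Array C was the lowest in both WT states, and 1 of the 3 probes of the gene was called. Zfp292 was lower by 1.45 on average (difference -1.45, adjusted p = 8.67e-05), with 8.73, 8.26 and 8.11 in WT Th2 cells, and by -1.20 in BAF180-deficient ones (0.000561). Zfp238 (now Zbtb18), a BTB zinc finger repressor, went from 6.26, 6.76 and 6.74 to 5.60, 5.63 and 5.17 in WT cells (-1.12, adjusted p = 0.000941), with 2 of its 4 probes called. Its decrease of 0.72 in BAF180-deficient cells (difference -0.72, adjusted p = 0.0219) was lost without Naïve array C (-0.52) or Th2 array C (-0.64). Zfp99 was lower by -1.01 (0.00145), Zfp162 (Sf1) by -0.87 (0.00216) and Zfp597 by -0.84 (0.0026). Sf1 missed the threshold in BAF180-deficient cells (-0.52, adjusted p = 0.0522), though its arrays did not overlap, and passed it with same-letter arrays as pairs (adjusted p = 0.0305), and Zfp597 passed there (-0.75, 0.00582) with arrays that did.

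A list of 24 Zfp genes with a described function was also followed, of which 15 had a detected probe. Zfp57, Zfp568 and Zfp217 were on the array and not detected, and the other 6 had no probe under their symbol. In WT Naïve cells 10 of the 15 changed with anti-CD3 and anti-CD28, 3 higher (Zfp207, Zfp143 and Zfp410) and 7 lower (Zfp91, Zfp148, Zfp281, Zfp318, Zfp592, Zfp608 and Zfp609), where 23.6% of all probes were called higher and 20% lower. All but Zfp609 also passed in BAF180-deficient cells. The 15 were not matched to all probes for detection. Of all probes on all 24 arrays, 57.9% were called in either direction in WT cells, and of those on 1 to 11 arrays 17.3%. Several of the WT calls rested on single arrays. Zfp318 lost its call without resting array A or C or stimulated array A or C (-0.43 to -0.58). Zfp410 and Zfp609 kept theirs only without resting array C, and the other leave-outs gave 0.42 to 0.52 for Zfp410 and -0.30 to -0.43 for Zfp609. The Zfp609 probe was close to background, going from 4.78 to 4.37. It was detected on 1 resting and 0 stimulated WT arrays, and the other Zfp609 probe on 0 and 1. Zfp608, which represses Rag genes in thymocytes, went from 5.75, 5.13 and 5.46 to 4.85, 4.72 and 4.68 in WT cells (-0.70, SE 0.19, adjusted p = 0.00407) and from 6.06, 6.29 and 5.90 to 4.86, 4.82 and 4.78 in BAF180-deficient cells (-1.26, SE 0.19, adjusted p = 1.22e-05). The stimulated arrays of both genotypes lay between 4.68 and 4.86, and the resting arrays did not overlap between them. Zfp318, needed for IgD expression in B cells, fell by 0.58 (adjusted p = 0.0281, with overlapping arrays) and 1.04 (0.000334). Zfp148, a GC-rich promoter binder, fell by 0.89 (0.00529) and 1.00 (0.00219).

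Zfp410, an activator of the NuRD gene Chd4, was undetected at rest and rose in WT by a measured 0.49 (adjusted p = 0.0338), and in BAF180-deficient cells at least 1.17-fold (0.00748). Zfp143 rose by 0.78 (0.00459) and 0.95 (0.000892). With PMA and ionomycin, 1 of the 15 passed in WT cells, Zfp91, where 13% of all probes were called higher and 14.3% lower. In BAF180-deficient cells 4 did: Zfp91, Zfp281 (0.84, adjusted p = 0.013), Zfp143 (0.64, 0.0286) and Zfp608 (-0.53, 0.0404), where 12% of all probes were called higher and 13.8% lower. Each of the last 3 lost its call without any of 4 arrays. These were resting A and C and stimulated A and B for Zfp281 (0.71 to 0.77), resting A and B and stimulated A and B for Zfp143 (0.48 to 0.65), and resting B and C and stimulated A and B for Zfp608 (-0.40 to -0.51). Passing in 1 genotype is not a difference between the genotypes, and no interaction passed (below). The SUMO ligase Zfp451, the ribosome collision ligase Zfp598, the ribosome assembly factor Zfp622, Zfp445 and Zfp532 passed in none of the comparisons of states, with group means of 5.38 to 5.87 for Zfp451.

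More than 1 probe was detected for 39 genes. In WT cells after anti-CD3 and anti-CD28, 22 of them had a called probe and 6 had every probe called, and no gene had probes called in opposite directions in any of the 6 comparisons of states. The sign of the difference, called or not, was mixed between the probes of 9 to 17 of the 39 genes, the most in BAF180-deficient Th2 cells after PMA and ionomycin. Probes seen in a single state were mostly seen on 1 array. In Naïve cells there were 10 such probes at rest and 11 after stimulation, and in Th2 cells 7 and 6. Of these, 1, 1, 2 and 0 were detected on 3 or more arrays, those of Zfp187, Zfp771, Zfp386 and Zfp93.

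Chromosome 7, with the most members, was looked at after its values had been seen. By the chromosomes given in the deposited table, which cover 143 of the 198 probes, 33 Zfp probes lie on it. After anti-CD3 and anti-CD28, 12 of the 33 were higher and 4 lower in WT cells (36.4% and 12.1%), where 18.1% and 20.6% of the other 725 probes of that chromosome were. In BAF180-deficient cells the shares were 39.4% and 12.1%, against 17.1% and 20.1%. The 10 probes higher in both genotypes belong to 7 genes, Zfp27, Zfp60, Zfp296, Zfp428, Zfp553, Zfp574 and Zfp771. The differences in WT cells were 0.69 for Zfp27 and 0.69 for Zfp60. The 4 lower in both were Zfp524, Zfp592, Zfp646 and Zfp715. By RefSeq chromosome, 13 of 42 Zfp probes on chromosome 7 were higher and 4 lower in WT cells. With PMA and ionomycin 9.09% (WT) and 6.06% (BAF180-deficient) of the 33 were higher, against 10.3% and 8.97% of the others. For Th2 against Naïve cells the shares were 21.2% and 30.3%, against 17% and 17.2%. On chromosomes 17 and 13, 13.3% and 21.4% of Zfp probes were higher after anti-CD3 and anti-CD28 in WT cells, against 21.6% and 26%. No test was made on these sets.

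Of a list of 21 corepressor genes through which KRAB zinc finger proteins act, 16 were detected. With anti-CD3 and anti-CD28, 10 of the 16 rose, none was called lower and 6 did not pass in each genotype. Their median differences were 0.62 and 0.66. Of all probes 23.6% and 22.3% were called higher, and the 16 were not matched to them for detection. Of all probes on all 24 arrays, 57.9% in WT and 54.9% in BAF180-deficient cells were called in either direction. Among the corepressor genes that did not pass were Atf7ip, at -0.34 in WT and -0.74 in BAF180-deficient cells, Morc3 (-0.34 and -0.18) and Trim33 (-0.24 and -0.30). Trim28 rose by 0.87 in WT (SE 0.21, adjusted p = 0.00177) and 0.86 in BAF180-deficient cells (0.0021), and Setdb1 by 0.45 (0.0426) and 0.82 (0.000763). Larger increases were found for Uhrf1, which recruits Dnmt1 to replicated DNA (2.83 in WT), the HP1 gene Cbx5 (1.77), Dnmt1 (1.67) and Hdac2 (1.45), genes that also serve cell division. After PMA and ionomycin in WT Th2 cells 2 rose (Hdac2 and Chd4) and 4 fell (Uhrf1 by 1.19, Dnmt1 by 0.98, Cbx5 by 0.81 and Hdac1 by 0.74). Of all probes 13% were called higher and 14.3% lower there. In BAF180-deficient cells Hdac2 rose, and Cbx5 and Cbx3 fell, where 12% and 13.8% of all probes did. Cbx3 went from 4.76 to 4.19, where Cd8a, detected on no array, stood at 4.17. In Th2 against Naïve cells 4 were higher in WT and 5 in BAF180-deficient cells, and none lower. Of all probes 18.5% and 18.8% were called higher, and 16% and 15.9% lower. The 16 genes included no genotype call in any state, where at most 0.653% of all probes were called.

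The responses of WT and BAF180-deficient cells were then compared, each measured against its own resting arrays. With anti-CD3 and anti-CD28, 28 probes were called higher in both genotypes (75.7% of the WT and 80% of the BAF180-deficient calls) and 24 lower in both (70.6% and 85.7%). With PMA and ionomycin 14 were higher in both (82.4% and 77.8%) and 11 lower (61.1% and 78.6%), and between Th2 and Naïve cells 15 (71.4% and 55.6%) and 21 (72.4% and 75%). No probe was called in opposite directions. Among probes called in either genotype the sign was the same for 81 of 82, 40 of 42 and 67 of 69. These overlaps and signs were not computed over all probes, so they do not show an agreement particular to the Zfp genes. As a description over the 198 probes, which are not independent and share arrays within a genotype, the correlation of the differences was 0.91, 0.86 and 0.87. The interaction, which tests whether a response differs between the genotypes, passed for no Zfp probe in any of the 3 comparisons, and 0% of all probes passed in each. Without adjustment 6, 3 and 5 Zfp probes had a p below 0.05, where 2.27%, 1.8% and 2.7% of all probes were. The lowest p belonged to Zfp446 in the response to anti-CD3 and anti-CD28 (-0.83, SE 0.24, adjusted p = 1). This was its brighter probe, with differences of 0.89 in WT and 0.06 in BAF180-deficient cells. The other Zfp446 probe did not repeat this, at 0.20 in WT (adjusted p = 0.213) and 0.37 in BAF180-deficient cells (0.0226). The response of Zfp608 differed by -0.56 (SE 0.26, adjusted p = 1).

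**Figure D3:**
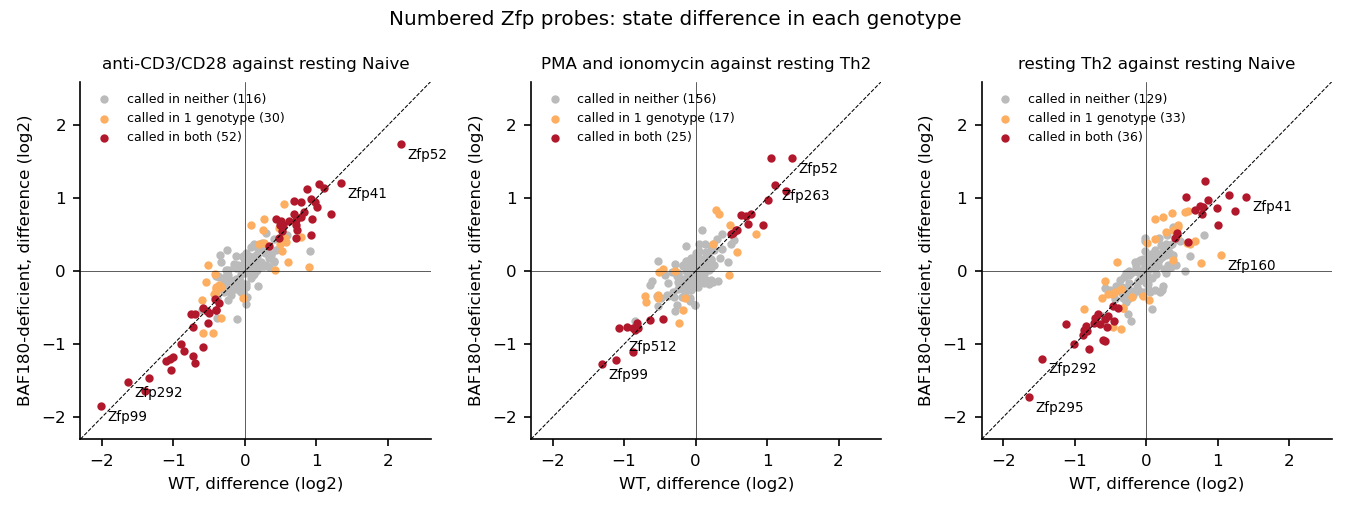
Log2 difference of each of the 198 Zfp probes in BAF180-deficient cells (vertical axis) against that in WT cells (horizontal axis), for the 3 comparisons of states. Points are coloured by whether the probe was called in both genotypes (52, 25 and 36 probes), in 1 (30, 17 and 33) or in neither, and the called probes lie along the diagonal with none called in opposite directions.

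The comparison for which the mice were made is that of BAF180-deficient with WT cells within a state. A probe was called here by the limits of the 4 criteria of the study's methods. These are a mean signal above 0, an unadjusted p below 0.05, an adjusted p (FDR) below 0.3 and a Z-ratio beyond 1.5. The Z-ratio is the difference over the SD of all differences. The statistics came from limma on the log2 values, where the study used Z-scores with its own p and FDR. The signal criterion excluded no Zfp probe, since their lowest mean log2 level was 4.22. No Zfp probe met all 4 criteria in Naïve cells at rest and after stimulation or in Th2 cells at rest and after stimulation. In this order 0.653%, 0.0772%, 0.0842% and 0.0913% of all probes did. By its own statistics the study reported a larger number of affected genes in differentiated cells than in Naïve ones. In limma without adjustment, 11, 4, 4 and 0 Zfp probes had a p below 0.05, against 6.79%, 2.25%, 3.45% and 2.72% of all probes. The median Zfp difference was -0.025, -0.028, -0.012 and -0.007 in the same order. Single probes ranged from -0.54 to 0.64 in resting Naïve and from -0.45 to 0.32 in stimulated Th2 cells. The median SE of a Zfp difference was 0.17, and the Z-ratio limit equalled a log2 difference of 0.27 to 0.34.

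In resting Naïve cells the largest increase was that of Zfp608. Its values were 5.75, 5.13 and 5.46 in WT and 6.06, 6.29 and 5.90 in BAF180-deficient cells, without overlap, and the difference was 0.64 (SE 0.19, adjusted p = 0.341). Zfp446 stood at 4.50, 4.73 and 4.72 in WT and 4.89, 5.16 and 5.37 in BAF180-deficient cells, higher on every array, by 0.49 (adjusted p = 0.516). These values are of its brighter probe, and the other Zfp446 probe was detected on no resting Naïve array. Zfp787 stood at 5.01, 5.04 and 4.57 in WT and at 4.48, 4.40 and 4.56 in BAF180-deficient cells, where no array detected it, at least 1.06-fold lower (adjusted p = 0.604). Zfp553 was lower by a measured -0.45 (adjusted p = 0.544). Myeloid and erythroid markers were present in these arrays of both genotypes, and their part was not tested. When WT and BAF180-deficient arrays of the same letter were treated as pairs within a state, a fit chosen after the data were seen, 5 Zfp probes were called in resting Naïve cells (2.53%, against 4.14% of all probes) and 0 in the other states. Higher were Zfp608 (adjusted p = 0.192), Zfp446 (0.254) and Zfp535, now Zkscan6 (0.218). Lower were Zfp787 (0.254) and a probe of Zfp238 (0.286). The count without pairs rested on single arrays: it was 8 without WT array C, 4 without BAF180-deficient array C and 0 or 1 without any of the other 4.

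In stimulated Naïve cells Zfp281 stood at 6.92, 6.88 and 6.58 in WT and 6.27, 6.08 and 6.41 in BAF180-deficient cells, a difference of -0.54 (SE 0.24, adjusted p = 1), and Zfp2 differed by -0.31. In resting Th2 cells Zfp93, detected on 3 arrays and in no other state, differed by -0.35 (SE 0.11, adjusted p = 0.703) and was at least 1.13-fold lower in BAF180-deficient cells, where it was undetected. No Zfp probe reached an unadjusted p below 0.05 in stimulated Th2 cells. Averaged over the 4 states, with 12 arrays a genotype, no Zfp probe had an adjusted p below 0.05, where 0.309% of all probes did. An unadjusted p below 0.05 was found for 18 Zfp probes, 5 higher and 13 lower, against 7.55% of all probes. This fit took the 12 arrays as independent, though arrays of different states may come from the same mice. The sign was lower in BAF180-deficient cells for 121 Zfp probes and higher for 77. These probes share arrays and are not independent, and signs were not counted over all probes, so no common direction is shown. The median Zfp difference was -0.021, with all probes at 0.001. The lowest adjusted p of a Zfp probe was 0.215, or 0.0651 with the pairs. Taking each gene with an unadjusted p below 0.05 by its brightest probe, the highest were Zfp537 (now Tshz3), at 0.33 (SE 0.14, adjusted p = 0.539), and Zfp608, at 0.24 (adjusted p = 0.461). The lowest were Zfp313 (Rnf114) and Zfp238, both at -0.34 (adjusted p = 0.487 and 0.346), and Zfp281 at -0.29 (0.526). The other Rnf114 probe was at -0.44 (adjusted p = 0.215).

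**Figure D4:**
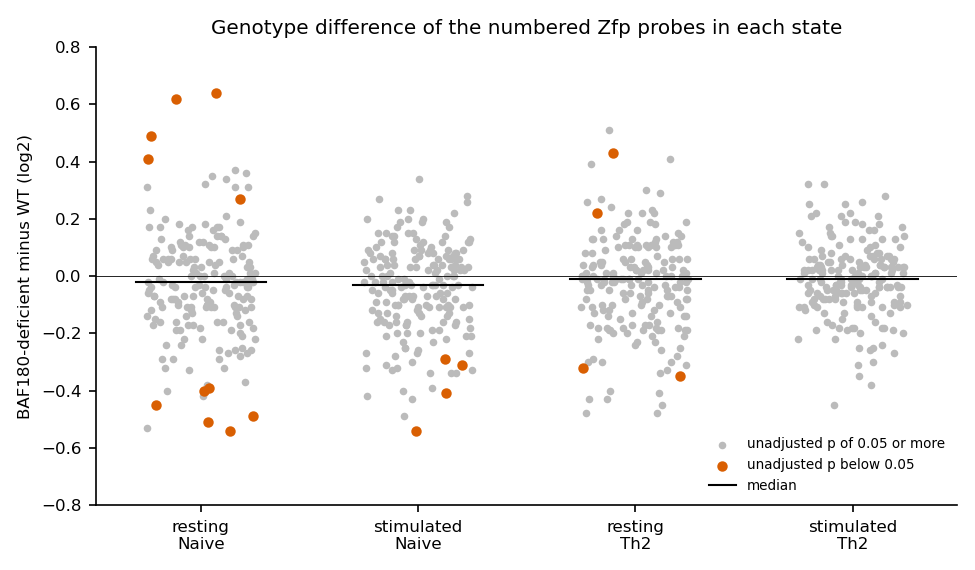
BAF180-deficient minus WT log2 difference of each of the 198 Zfp probes in the 4 cell states, with the median as a line and probes with an unadjusted p below 0.05 in orange (11, 4, 4 and 0 probes). The points centre near 0 in each state, and those of resting Naïve cells reach from -0.54 to 0.64.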

How the data were processed

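Total RNA was labelled and hybridized to 24 Illumina MouseRef-8 v2 arrays. The authors deposited the GenomeStudio bead intensity of each probe (version 1.6.0 in the submitters' processing notes), neither background-subtracted nor normalized. Beside it the authors deposited the detection p-value of the probe, computed against negative control beads. A probe was kept if any array had a detection p no higher than 0.02. Background was inferred from the detection p-values, an offset of 16 was added, and after log2 transformation the arrays were quantile normalized (function neqc of limma 3.58.1, R 4.3.3). The study itself used Z-scores. Means of the 8 groups were fitted to each kept probe (lmFit and eBayes, 20.4 degrees of freedom after moderation), with Benjamini-Hochberg adjustment over all of them. Scripts were tested on simulated data. Dim groups bound a fold change as described in the text.

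The members and lists were chosen with earlier results of these data known. Named were the 6 highest and 6 lowest called WT differences between states without overlap of arrays (brightest probe of a gene), the same genes in BAF180-deficient cells, the 3 highest and 3 lowest genotype differences with an unadjusted p below 0.05 and no overlap in a state, and called members of known function. A few of these are given by counts only. Probes were matched to RefSeq names by Entrez ID (140), accession (56) or synonym (2), and 122 further probes that now carry a numbered Zfp symbol stand under another symbol in the table and were not included.

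The methods describe 3 pairs of mice without tying them to letters. The deviations of same-letter WT and BAF180-deficient arrays from their group means correlated at 0.302 (A), 0.136 (B) and 0.517 (C), so letters were read as pairs for the genotype. Between states all 3 letters passed 0.1 in BAF180-deficient cells for stimulated with resting Th2 and for Th2 with Naïve cells. Alternatives were Z-scores, no background correction, an offset of 50, arrays normalized or fitted per comparison, other detection filters, replicate blocks, the other call rule, 1 probe per gene and leaving out each array. A slide block was not run, since the table names no slides, and zinc finger and KRAB counts from protein sequences were not run, since no protein table was used here.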

Additional observations from a re-analysis of the deposited data

How the results depend on the processing

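Other settings than single arrays moved 22 recomputed counts of Zfp calls by more than 1.5 times, and 163 stayed within it. For the genotype in resting Naïve cells the count of 0 became 1 without background correction, 1 with an offset of 50 and 5 with pairs as a replicate block within states, and leaving out an array gave 0 to 8. In the other states it stayed 0. By the other call rule (the 4 criteria, whose Z-ratio scales with the SD of all differences, in place of an adjusted p below 0.05) the calls higher and lower shrank to 1 and 3 for anti-CD3 and anti-CD28 in WT, 1 and 5 in BAF180-deficient cells, 3 and 3 and then 4 and 3 for PMA and ionomycin, and 2 and 2 and then 1 and 2 for Th2 against Naïve cells. Z-scores gave 40 higher and 21 lower for anti-CD3 and anti-CD28 in WT (65.6% of calls higher, 52.1% in the text). For WT Th2 they gave 24 and 13 (64.9%, 42%), and for BAF180-deficient Th2 35 and 17 (67.3%, 49.1%). For PMA and ionomycin in BAF180-deficient cells they gave 14 and 18 (43.8%, 56.2%). Of all probes, Z-scores called 22.8% higher and 18% lower in the first of these comparisons. In the others, in this order, they called 19.5% and 13.8%, 23.5% and 14.6%, and 9.39% and 15.4%. Fitted alone, the arrays gave 22 lower in WT and 23 higher in BAF180-deficient cells for anti-CD3 and anti-CD28, and 17 lower for WT Th2, which was also 17 when these arrays were normalized alone. The causes of these moves were not tested.

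Leaving out single arrays gave, for anti-CD3 and anti-CD28, 29 to 37 higher and 19 to 37 lower in WT (19 without stimulated array C, 21 without resting A, 22 without resting B) and 26 to 42 and 24 to 29 in BAF180-deficient cells. For PMA and ionomycin it gave 10 to 16 and 12 to 17 in WT (10 higher without resting C or stimulated B, 11 without stimulated A), and 10 to 20 and 8 to 13 in BAF180-deficient cells (10 higher without stimulated B, 8 lower without resting B). For Th2 it gave 16 to 24 and 16 to 33 in WT (lower: 16 without Th2 A, 17 without Naïve A, 18 without Naïve B, 19 without Th2 C) and 21 to 32 and 18 to 32 in BAF180-deficient cells (18 lower without Th2 C). The median for anti-CD3 and anti-CD28 in BAF180-deficient cells went from 0.062 to -0.017 without stimulated array C. The only reversals were those of Zfp160 in BAF180-deficient Th2 cells, -0.23 and -0.09 (0.22 with all arrays, and -0.23 to 0.48 with single arrays left out). Same-letter arrays of different states correlated at -0.0102 to 0.425. All 3 letters passed 0.1 in BAF180-deficient cells between resting and stimulated Th2 (0.29 to 0.425) and between Naïve and Th2 (0.131 to 0.205), and were read as pairs there. With genotype and letter as a replicate block these comparisons gave 17 higher and 16 lower, and 29 and 31, and of the named genes only Sf1 changed its call. In the other comparisons a letter fell short, and the letter as a replicate block gave 40 and 35 calls for anti-CD3 and anti-CD28 in WT, 36 and 29 in BAF180-deficient cells, 17 and 19 for PMA and ionomycin and 28 and 31 for Th2 in WT. No block moved a count of these by over 1.5 times. Signal close to background limits the dim members, 68 of which were detected on fewer than 12 arrays.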
